A study of Mus musculus with 48 samples.

Results

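Cirbp, Rbm3 and Srsf7 are 3 genes for RNA-binding proteins, followed here as transcripts through donor T cells of a graft-versus-host disease model. They are 3 of 35661 gene IDs in the donor T cell counts, and all 3 passed the low-count filter in CD4 cells, CD8 cells and thymic iNKT cells. The genes were put together because, in these same donor T cells, Cirbp and Rbm3 were lower and Srsf7 was higher where iNKT cells had been given. Their values in donor T cells are therefore a description, with no test. Only the thymic iNKT libraries, which had no part in that choice, were tested for these genes.

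Cirbp and Rbm3 are small proteins with a single RNA recognition motif, and both are known for rising in mammalian cells under mild cold and falling under heat. They bind messenger RNAs, affect their stability, translation and choice of polyadenylation site, and have been tied to the daily body temperature cycle. Srsf7 belongs to the SR proteins, splicing factors whose arginine and serine rich tail is phosphorylated by SRPK and CLK kinases. SR proteins help select exons, and Srsf7 also takes part in messenger RNA export and 3′ end processing.

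The study transplanted conventional T cells (Tcon) of FVB/N mice into Balb/C hosts, a major mismatch model of graft-versus-host disease. Invariant natural killer T (iNKT) cells recognise glycolipids on CD1d and mature in the thymus into the iNKT1, iNKT2 and iNKT17 sublineages. Donor CD4 and CD8 T cells, labelled as coming from spleen and peripheral lymph nodes, were profiled by bulk RNA-seq on day 7 with iNKT1, iNKT2 or iNKT17 cells given, on day 7 with no such treatment (untreated), and on day 0 before transplantation. Each of the 5 groups had 3 CD4 and 3 CD8 libraries, 30 in all. The labels name no sex, age or cell dose for these groups and do not say whether a library came from 1 animal. Thymic iNKT1, iNKT2 and iNKT17 cells sorted from FVB/N mice gave 2 RNA and 2 ATAC libraries each, and total thymic iNKT cells of 2 mice aged 8 weeks were profiled as single cells.

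Library totals ran from 25323879 to 37055182 counts in donor T cells, from 26811373 to 33688697 in iNKT RNA and from 13299586 to 42964216 over ATAC regions. Cd4 lay between 416 and 1280 CPM (TMM-scaled counts relative to library size, the unit of all bulk levels given here) in CD4 libraries. In CD8 libraries it was below 0.9 CPM on day 7 but between 18.2 and 43.5 CPM on day 0. Day 0 libraries also held more RNA of other blood cells, by far for erythroid and B cell markers. Summed over 6 of 6 erythroid markers, they had 3120 to 9340 CPM in CD4 and 570 to 751 CPM in CD8 libraries. No day 7 library exceeded 18.0 CPM of these. Over 7 of 8 myeloid markers, day 0 libraries had 773 to 841 CPM in CD4 and 469 to 1590 CPM in CD8 cells. On day 7 the myeloid sums were 106 to 614 and 112 to 371 CPM. Over 6 of 6 B cell markers, day 0 libraries had 411 to 474 and 166 to 604 CPM. Any day 7 library had at most 16.7 CPM of B cell markers. In thymic RNA the marker sums followed the labels: 6380 to 7340 CPM of 9 iNKT17 markers in iNKT17, 802 to 1050 CPM of 6 iNKT2 markers in iNKT2 and 4470 to 4590 CPM of 9 iNKT1 markers in iNKT1 libraries. In bulk RNA, fewer cells of a type and less RNA per cell cannot be told apart.

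The promoter windows of Cirbp and Srsf7 are printed because chromatin regions measured in iNKT cells cover both and because letters tied to mild cold can be looked for in them. The windows run from 250 bases before to 50 bases after each RefSeq start site (GRCm38.p6). Rbm3 is named only. The search covered both strands for the CCAAT box (CCAAT), an octamer described as responsive to mild cold (TCCCCGCC), the GC box (GGGCGG), the TATA box as TATAAA or as TATATA, and the paired heat shock unit (GAANNTTC). Capitals mark the CCAAT box and the octamer, as read on the gene's strand.

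Cirbp window 1, chr10:80167589-80167888, plus strand: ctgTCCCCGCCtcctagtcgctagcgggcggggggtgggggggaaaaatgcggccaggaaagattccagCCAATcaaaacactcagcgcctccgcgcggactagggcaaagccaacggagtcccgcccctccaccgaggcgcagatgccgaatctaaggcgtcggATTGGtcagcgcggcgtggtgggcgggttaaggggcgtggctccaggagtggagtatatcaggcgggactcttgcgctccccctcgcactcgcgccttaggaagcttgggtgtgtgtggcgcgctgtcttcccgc
Cirbp window 2, chr10:80167921-80168220, plus strand: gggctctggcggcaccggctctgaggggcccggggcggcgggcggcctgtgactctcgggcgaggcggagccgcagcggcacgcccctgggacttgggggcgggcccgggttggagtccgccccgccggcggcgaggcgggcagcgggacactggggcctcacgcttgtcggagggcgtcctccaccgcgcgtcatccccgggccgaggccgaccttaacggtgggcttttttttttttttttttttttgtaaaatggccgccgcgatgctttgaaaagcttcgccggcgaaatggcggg
Srsf7 window, chr17:80207256-80207555, minus strand: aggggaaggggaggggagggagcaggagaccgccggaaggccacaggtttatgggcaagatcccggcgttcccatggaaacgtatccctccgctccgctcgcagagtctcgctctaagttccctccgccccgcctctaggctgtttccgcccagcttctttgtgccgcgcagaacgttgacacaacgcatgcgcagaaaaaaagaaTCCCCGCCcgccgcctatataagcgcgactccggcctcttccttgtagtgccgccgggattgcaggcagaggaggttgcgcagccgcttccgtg

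The upstream Cirbp window held the octamer at position -247 from the start site and CCAAT boxes at -181 on the gene's strand and at -85 on the other strand. It also held GC boxes at -225, -128 and -65. The Srsf7 window held the octamer at -44, overlapping a GC box that starts at -41, further GC boxes at -126 and -104, and TATATA at -29. The second Cirbp window held GC boxes alone among the letters searched. Of 32851 RefSeq promoter windows of that length, 5.38% held the octamer, 37.4% CCAAT, 35.7% the GC box, 13.6% TATAAA, 5.67% TATATA and 7.86% GAANNTTC. GC content was 65.7% and 70.0% in the Cirbp windows and 62.7% in the Srsf7 window. A match in letters is a description of the window and not a bound site.

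In day 7 donor T cells, Cirbp was lower with iNKT cells than without in both cell types, whichever sublineage had been given. In CD4 cells it had 49.3, 53.3 and 61.1 CPM with iNKT1 cells. With iNKT2 cells the libraries gave 72.9, 56.9 and 101.0 CPM, and with iNKT17 cells 91.7, 55.1 and 97.6 CPM. Untreated CD4 cells had 168.6, 141.0 and 145.5 CPM. All 9 treated libraries lay below all 3 untreated ones, the highest treated library at 101 and the lowest untreated library at 141 CPM. The log2 fold changes against the untreated libraries, which all these comparisons share, were -1.48 ± 0.229 (SE) with iNKT1, -0.98 ± 0.226 with iNKT2 and -0.90 ± 0.226 with iNKT17 cells. The iNKT1, iNKT2 and iNKT17 libraries overlapped each other, with SDs of 5.99, 22.4 and 23.0 CPM.

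CD8 cells gave Cirbp values of the same order. With iNKT1 cells they had 46.9, 66.7 and 68.2 CPM, with iNKT2 cells 57.4, 63.5 and 73.8 CPM, and with iNKT17 cells 74.8, 59.2 and 90.3 CPM. Untreated CD8 cells had 175.8, 141.2 and 143.6 CPM, again above every treated library. The log2 fold changes were -1.34 ± 0.168, -1.24 ± 0.167 and -1.04 ± 0.166 for iNKT1, iNKT2 and iNKT17 cells. Averaged over the 3 treatments, Cirbp was 0.461 times the untreated level in CD4 cells (log2 fold change -1.12 ± 0.173) and 0.433 times in CD8 cells (-1.21 ± 0.127), with 9 treated and 3 untreated libraries in each cell type. In the fit of all 30 donor T cell libraries, the CD8 effect minus the CD4 effect was -0.08 ± 0.23 on the log2 scale, smaller than its SE. This fit took CD4 and CD8 libraries as independent. Day 7 titles give a CD4 and a CD8 sample the same experiment, treatment and number, so the SEs of such differences may be off.

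Rbm3 was also lower with iNKT cells, by a smaller fold. CD4 cells had 429.8, 528.9 and 488.5 CPM with iNKT1 cells, 468.3, 495.3 and 517.1 CPM with iNKT2 cells and 446.1, 410.8 and 503.0 CPM with iNKT17 cells. Untreated CD4 cells had 759.0, 682.4 and 585.2 CPM. The groups did not overlap, and the nearest libraries were a treated one at 529 and an untreated one at 585 CPM. The log2 fold changes in CD4 cells were -0.49 ± 0.133 with iNKT1, -0.45 ± 0.133 with iNKT2 and -0.58 ± 0.134 with iNKT17 cells.

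In CD8 cells Rbm3 had 654.8, 756.5 and 728.6 CPM with iNKT1 cells, 607.9, 731.5 and 594.0 CPM with iNKT2 cells and 670.4, 569.9 and 628.2 CPM with iNKT17 cells. Untreated CD8 cells had 990.8, 879.5 and 808.4 CPM. The highest treated library, at 757 CPM, was again below the lowest untreated one. The log2 fold changes were -0.32 ± 0.107, -0.47 ± 0.107 and -0.52 ± 0.107 for iNKT1, iNKT2 and iNKT17 cells. Over the 3 treatments Rbm3 was 0.705 times the untreated level in CD4 cells (-0.50 ± 0.106) and 0.738 times in CD8 cells (-0.44 ± 0.085), and the CD8 effect minus the CD4 effect was 0.08 ± 0.13.

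Srsf7 went the other way. CD4 cells had 72.3, 58.4 and 54.2 CPM with iNKT1 cells, 88.5, 50.6 and 61.0 CPM with iNKT2 cells and 50.7, 72.7 and 69.6 CPM with iNKT17 cells. Untreated CD4 cells had 23.5, 37.7 and 39.0 CPM, and all 9 treated libraries were higher than these. The log2 fold changes in CD4 cells were 0.88 ± 0.310, 1.00 ± 0.311 and 0.94 ± 0.311 for iNKT1, iNKT2 and iNKT17 cells.

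In CD8 cells Srsf7 had 107.0, 100.5 and 100.3 CPM with iNKT1 cells, 118.4, 75.9 and 91.6 CPM with iNKT2 cells and 78.9, 118.4 and 88.5 CPM with iNKT17 cells. The untreated CD8 libraries lay close together at 47.0, 45.1 and 46.7 CPM, below every treated library. The log2 fold changes were 1.15 ± 0.161 with iNKT1 cells, 1.04 ± 0.161 with iNKT2 cells and 1.04 ± 0.161 with iNKT17 cells. Over the 3 treatments Srsf7 was 1.92 times the untreated level in CD4 cells (0.94 ± 0.267) and 2.11 times in CD8 cells (1.08 ± 0.139). The CD8 effect minus the CD4 effect was 0.15 ± 0.30.

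**Figure D1:**
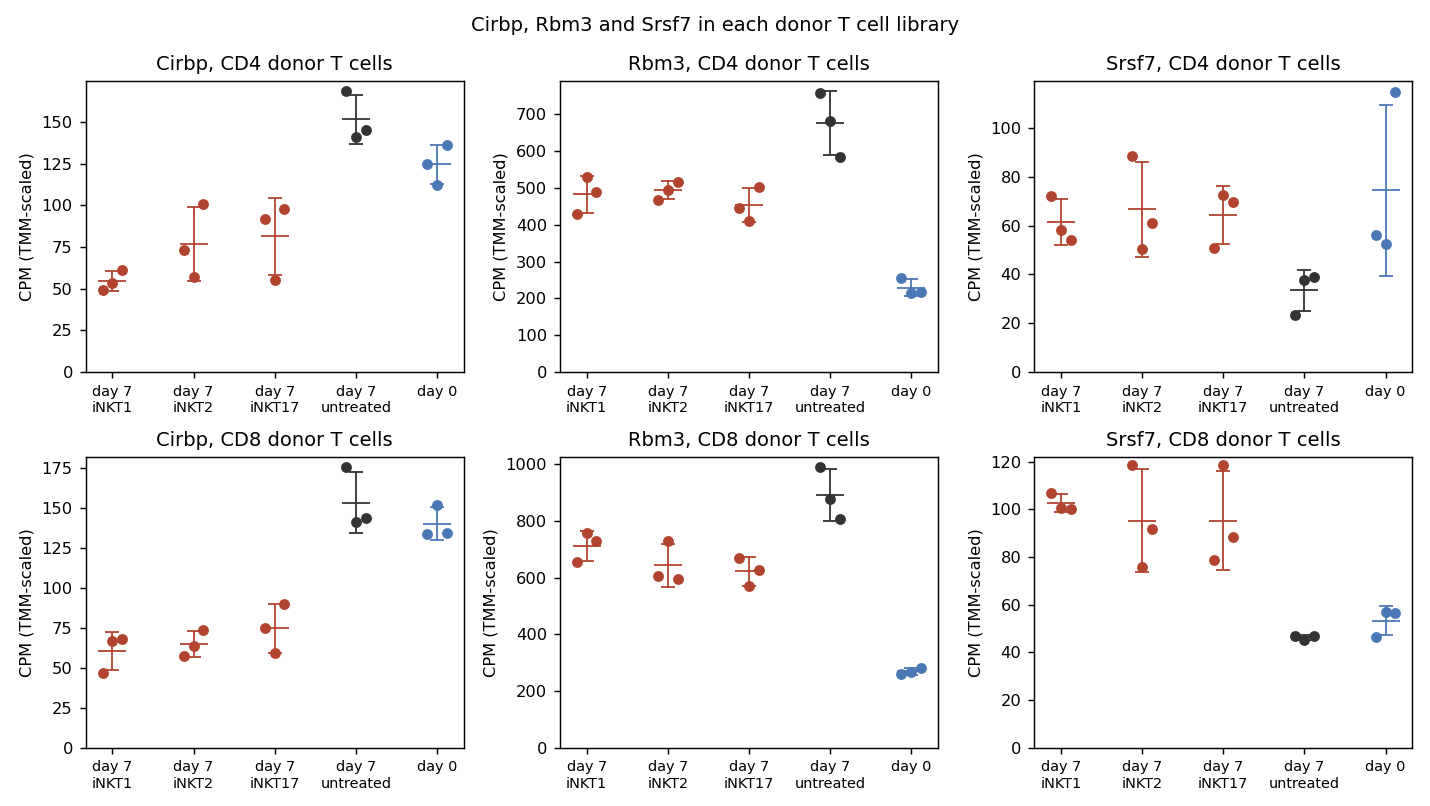
Level of Cirbp, Rbm3 and Srsf7 in TMM-scaled CPM in each CD4 (top) and CD8 (bottom) donor T cell library. Dots are libraries (3 a group) and bars the mean ± SD; all day 7 libraries with iNKT cells lie below the untreated ones for Cirbp and Rbm3 and above them for Srsf7.

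Counted by direction, 2 of the 3 genes had all treated libraries below all untreated ones and 1 of 3 had them above, in CD4 and in CD8 cells alike. Of all genes tested, 2.59% were lower without overlap in this way in CD4 cells and 1.9% higher, and in CD8 cells 2.15% lower and 2.36% higher. The genes were chosen from these comparisons, so nothing is read from the counts. Nor can the CD4 and CD8 counts be taken as independent. Treated CD4 and CD8 columns of the same treatment and number had log2 CPM with Pearson r = 0.756 for Cirbp, 0.387 for Rbm3 and 0.798 for Srsf7 (n = 9). Without the 2 pairs whose CD8 value lay farthest from the median, r was 0.6, -0.208 and 0.611. Leaving out any 1 library, changing the scaling, the filter or the tool gave no change of direction, with log2 fold changes of Cirbp averaged over the treatments between -1.20 and -1.03 in CD4 and between -1.27 and -1.10 in CD8 cells. The same ranges were -0.60 to -0.41 and -0.51 to -0.36 for Rbm3, and 0.74 to 1.06 and 1.02 to 1.12 for Srsf7.

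**Figure D2:**
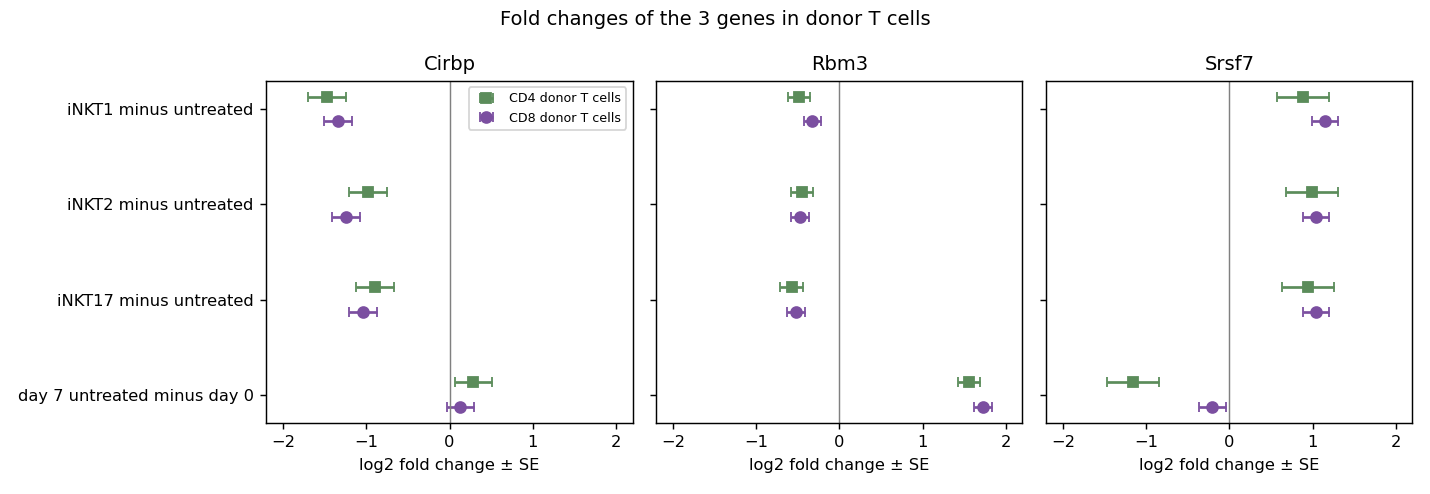
Log2 fold change ± SE of the 3 genes in CD4 (squares) and CD8 (circles) donor T cells, for each iNKT treatment minus untreated and for day 7 untreated minus day 0. Cirbp and Rbm3 are below 0 and Srsf7 above 0 under each treatment, while Rbm3 alone lies far above 0 on day 7 against day 0.

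Some cell markers differed between the same groups, among them the CD8 cells' own Cd8a and Cd8b1. Summed myeloid markers (7 of 8 in the table) reached 106 to 614 CPM in treated and 135 to 147 CPM in untreated CD4 libraries, and 112 to 371 CPM in treated and 128 to 277 CPM in untreated CD8 libraries. Summed Cd8a and Cd8b1 were 1590 to 1930 CPM in treated and 1290 to 1410 CPM in untreated CD8 libraries. The 9 iNKT17 markers summed to 17.6 to 28.5 CPM in treated and 26.2 to 44.1 CPM in untreated CD4 libraries, and to 4.95 to 10.5 and 6.34 to 10.6 CPM in CD8 libraries. Among them Il17a was at 0 in every day 7 group of both cell types, and Blk in the iNKT2 group of CD4 cells and in the iNKT2, iNKT17 and untreated groups of CD8 cells. The 6 iNKT2 markers summed to 118 to 225 CPM in treated and 115 to 128 CPM in untreated CD4 libraries, and to 87.9 to 120 and 94.8 to 105 CPM in CD8 libraries. The 9 iNKT1 markers summed to 3320 to 4450 CPM in treated and 3530 to 4170 CPM in untreated CD4 libraries, and to 5410 to 7600 and 4760 to 5850 CPM in CD8 libraries. On day 0 they summed to 350 to 384 CPM in CD4 and 1080 to 1290 CPM in CD8 libraries. Untreated cells had been given no iNKT cells, so these sums are not specific to iNKT cells. With the matching sublineage given, CD4 libraries had 3680 to 3880, 198 to 225 and 22.4 to 25.9 CPM of iNKT1, iNKT2 and iNKT17 markers. CD8 libraries of those groups had 5410 to 6400, 93.3 to 119 and 5.31 to 8.14 CPM. Whether iNKT cells contributed to these sums was not tested. No iNKT1 or iNKT2 marker was at 0 in any of these groups. The part of these differences in the levels of the 3 genes was not tested.

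Against day 0 the 3 genes parted ways. These comparisons use the same untreated libraries as the treatment comparisons. Rbm3 had 759.0, 682.4 and 585.2 CPM in untreated day 7 CD4 cells, against 256.1, 215.4 and 216.2 CPM on day 0, a 2.95-fold higher level (log2 1.56 ± 0.136). In CD8 cells it had 808.4 to 990.8 CPM on day 7, against 259.0, 268.7 and 281.7 CPM on day 0, 3.31-fold higher (log2 1.73 ± 0.11). Cirbp differed little: untreated day 7 CD4 cells had 141.0 to 168.6 CPM and day 0 CD4 cells 125.0, 112.5 and 136.1 CPM (log2 0.28 ± 0.224). In CD8 cells the untreated day 7 libraries overlapped those of day 0, at 134.0, 152.2 and 134.6 CPM (log2 0.13 ± 0.164).

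Srsf7 in CD4 cells was lower in all 3 untreated day 7 libraries, at 23.5 to 39.0 CPM, than on day 0, at 56.2, 52.4 and 114.7 CPM (log2 -1.15 ± 0.312). The size rests in part on the day 0 library at 114.7 CPM: without it the log2 fold change was -0.69 ± 0.255. That library, replicate 3, also had 416.2 CPM of Cd4, against 902.9 and 931.0 CPM in replicates 1 and 2. Its Cd3e was 529.3 CPM, against 844.0 and 831.3 CPM. Its Rbm3 level, 216.2 CPM, lay between theirs. In CD8 cells Srsf7 overlapped, at 45.1 to 47.0 CPM on day 7 and 46.3, 57.0 and 56.5 CPM on day 0 (log2 -0.20 ± 0.160). The CD8 change minus the CD4 change was 0.93 ± 0.37 for Srsf7, 0.14 ± 0.16 for Rbm3 and -0.18 ± 0.29 for Cirbp. These come from the fit that took CD4 and CD8 libraries as independent. The Srsf7 value includes the CD4 day 0 library at 114.7 CPM. The erythroid, myeloid and B cell markers given above also set day 0 apart from day 7, and their part in these differences was not tested. Of all genes tested, 17.4% were called higher and 18.2% lower on day 7 in CD4 cells, and 30.9% and 29.8% in CD8 cells, at an adjusted p under 0.05.

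Set in order, the 5 groups of a cell type differ by gene. Mean Cirbp was highest in untreated day 7 cells, next on day 0 (overlapping the untreated libraries in CD8 cells) and lowest in the 3 treated groups, whose ranges overlapped each other. All 9 treated libraries of each cell type, at 49.3 to 101 CPM in CD4 and 46.9 to 90.3 CPM in CD8 cells, lay below the day 0 libraries, at 112 to 136 and 134 to 152 CPM. Rbm3 with iNKT cells stood between the untreated and the day 0 libraries, with no overlap with either. For Srsf7, treated CD8 libraries at 75.9 to 118 CPM exceeded both untreated and day 0 libraries, whereas treated CD4 libraries, at 50.6 to 88.5 CPM, overlapped the day 0 range of 52.4 to 115 CPM.

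The other genes of these pathways came from lists of SR proteins, SR-like splicing proteins, SR kinases, cold-shock domain proteins, RBM and hnRNP families, heat shock genes, clock genes and cell cycle genes. The lists were tested with edgeR's quasi-likelihood test and Benjamini-Hochberg adjustment over all genes. They were chosen with earlier results of these data known, so their calls and p-values are no independent support. For the mean of the 3 treatments against untreated, 0.0133% of all genes in CD4 cells were called higher and 0.0466% lower (9 genes). No listed gene was called in CD4 cells. At an unadjusted p under 0.05 there were 1 of 10 SR proteins, 3 of 17 SR-like genes, 0 of 8 SR kinases, 0 of 5 cold-shock domain genes, 7 of 31 RBM genes, 4 of 25 hnRNP genes, 6 of 20 heat shock genes, 3 of 18 clock genes and 1 of 15 cell cycle genes, beside 1467 of all 15031 genes tested. DESeq2 called 3 RBM genes and 2 heat shock genes higher and 1 hnRNP gene lower, and no gene of the other lists. The median log2 fold changes of the lists other than the heat shock genes lay between -0.15 for cell cycle genes and 0.11 for SR proteins in CD4 cells, and between -0.09 for clock genes and 0.17 for cell cycle genes in CD8 cells.

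In CD8 cells 0.706% of all genes were called higher and 0.521% lower with iNKT cells. Among the heat shock genes, 3 of 20 were higher and none lower. Hsph1, a co-chaperone of the HSP70 system, had 171.3 ± 13.3 CPM with iNKT1, 170.3 ± 9.29 with iNKT2 and 162.5 ± 13.3 with iNKT17 cells and 99.7 ± 15.8 CPM in untreated cells (SD, n = 3 each), a log2 fold change of 0.75 ± 0.0951 (edgeR adjusted p = 0.00326). Fkbp4 and Chordc1, which work with HSP90, were higher by 0.39 ± 0.0702 and 0.44 ± 0.0954 (edgeR adjusted p = 0.0273 and 0.0402). The list's median log2 fold change was 0.19, beside -0.00886 for all genes tested in CD8 cells. In CD4 cells the median of the list was 0.22, beside 0.0105 for all genes, and Hsph1 had a log2 fold change of 0.56 ± 0.162 (edgeR adjusted p = 0.208).

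Of the splicing lists in CD8 cells, 1 of 10 SR proteins was higher: Srsf10, which has a role in splicing under heat shock, at 169.7 ± 12.5, 162.9 ± 16.4 and 154.0 ± 13.4 CPM with iNKT1, iNKT2 and iNKT17 cells and 116.5 ± 12.5 CPM in untreated cells (SD, n = 3 each; log2 0.48 ± 0.0962, edgeR adjusted p = 0.0328). The SR protein median was 0.11 in both cell types. Of 17 SR-like genes 1 was higher, Luc7l, a homologue of a yeast U1 snRNP protein (log2 0.46 ± 0.0813, edgeR adjusted p = 0.0245). No SR kinase was called among 8, with 0 at an unadjusted p under 0.05 and 0 by DESeq2, and a median of 0.00435. Of 31 RBM genes 2 were higher: Rbm14, a paraspeckle protein (0.49 ± 0.0694, edgeR adjusted p = 0.00652), and Rbm10, a splicing regulator (0.45 ± 0.0774, edgeR adjusted p = 0.0235).

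Of 25 hnRNP genes 1 was lower in CD8 cells, Hnrnpdl, a relative of Hnrnpd, at 86.9 ± 11.6, 75.1 ± 16.1 and 76.2 ± 9.27 CPM with iNKT1, iNKT2 and iNKT17 cells and 126.4 ± 25.7 CPM in untreated cells (log2 -0.67 ± 0.142, SE; edgeR adjusted p = 0.0363). None of 5 cold-shock domain genes, 18 clock genes or 15 cell cycle genes was called by edgeR. At an unadjusted p under 0.05 these lists had 0, 1 and 3 genes, beside 2202 of all 14586 genes tested, and DESeq2 called 1 cell cycle gene higher and none of the others. Ybx3, a cold-shock domain protein that binds messenger RNA, had a log2 fold change of 0.11 ± 0.0854 and the clock factor Rora -0.17 ± 0.0805 (edgeR adjusted p = 0.577 and 0.34).

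Of the 8 listed genes called in CD8 cells, Hsph1 held its call in all 12 fits that left out 1 library. Without untreated replicate 2 the other 7 lost theirs, with edgeR adjusted p from 0.0664 for Rbm14 to 0.208 for Chordc1. Rbm14 lost its call there alone, Rbm10 in 3, Luc7l and Fkbp4 in 4, Hnrnpdl in 8 and Srsf10 and Chordc1 in 9 of the 12 fits. With the replicate number as a block, Rbm10, Hnrnpdl and Chordc1 also lost theirs (edgeR adjusted p = 0.0525, 0.0545 and 0.075). So did Fkbp4 and Hnrnpdl with all 30 libraries in 1 fit (edgeR adjusted p = 0.136 and 0.052). Chordc1 also lost its call with upper-quartile scaling (edgeR adjusted p = 0.0513). No sign changed.

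**Figure D3:**
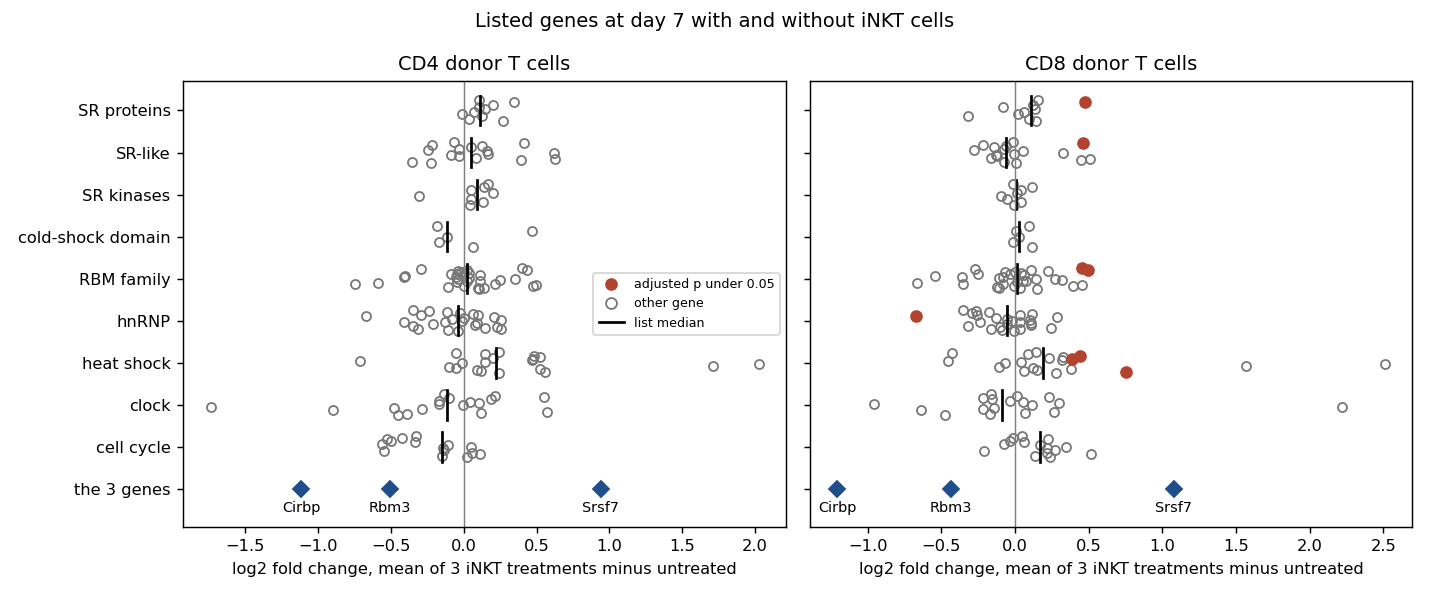
Log2 fold change of each listed gene for the mean of the 3 iNKT treatments minus untreated, in CD4 (left) and CD8 (right) donor T cells. Red points have an adjusted p under 0.05, black bars are list medians and blue diamonds the 3 genes; 8 listed genes are red in CD8 cells and none in CD4 cells.

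For day 7 without iNKT cells against day 0, the counts of the same lists are read beside all genes tested, of which 17.4% were higher and 18.2% lower in CD4 cells and 30.9% higher and 29.8% lower in CD8 cells. Of the cold-shock domain genes, 3 of 5 were called higher and none lower in each cell type, with Ybx3 at 3.71 ± 0.203 in CD4 and 4.42 ± 0.121 in CD8 cells (log2, edgeR adjusted p = 3.42e-08 and 8.17e-13). Carhsp1, a cold-shock domain protein that stabilises Tnf messenger RNA, rose by 1.60 ± 0.269 in CD4 and 3.07 ± 0.165 in CD8 cells on the log2 scale, and Ybx1 by 0.46 ± 0.12 and 0.92 ± 0.107 (edgeR adjusted p at most 0.00881). Ybx1 in CD4 cells lost its call in 1 of 13 alternatives. Of 20 heat shock genes, 9 were lower and none higher in CD4 cells, where 18.2% of all genes were lower, and 13 were lower and 1 higher in CD8 cells, where 29.8% of all genes were lower. Hsf1, the main heat shock transcription factor, had log2 fold changes of -1.20 ± 0.193 in CD4 and -1.40 ± 0.122 in CD8 cells, and Fkbp4 of -1.32 ± 0.174 and -1.01 ± 0.0847 (edgeR adjusted p at most 0.000253).

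Of 8 SR kinases, 3 were lower in CD4 and 6 in CD8 cells, beside 18.2% and 29.8% of all genes, and none was higher. Clk4, 1 of the 3 in CD4 cells, lost its call in 6 of 13 alternatives (edgeR adjusted p up to 0.166). Srpk2 had log2 fold changes of -1.10 ± 0.208 in CD4 and -1.22 ± 0.116 in CD8 cells (edgeR adjusted p = 0.000966 and 3.47e-07). Of 10 SR proteins, 1 was lower in CD4 cells, while in CD8 cells 4 were higher and 2 lower. Srsf5 was lower in both, at 317.5 ± 59.2 CPM on day 7 and 723.4 ± 90.7 CPM on day 0 in CD4 cells, and at 291.2 ± 25.6 and 790.4 ± 45.2 CPM in CD8 cells (SD, n = 3 each). Of 17 SR-like genes, 3 were lower and none higher in CD4 cells, beside 18.2% of all genes lower and 17.4% higher. Rsrc2, 1 of these 3, lost its call in 8 of 13 alternatives (edgeR adjusted p up to 0.159). In CD8 cells 5 SR-like genes were lower and 4 higher, near the shares of all genes there (29.8% and 30.9%). Tra2a, a splicing activator, had log2 fold changes of -1.56 ± 0.41 in CD4 and -1.77 ± 0.231 in CD8 cells (edgeR adjusted p = 0.00865 and 1.1e-05).

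Of 31 RBM genes, 2 were higher and 7 lower in CD4 cells, and 10 higher and 11 lower in CD8 cells, near the shares of all genes there (30.9% and 29.8%). In CD4 and CD8 cells, Rbm43 had log2 fold changes of 0.92 ± 0.113 and 1.35 ± 0.0897, and Rbm38, which binds the messenger RNA of Cdkn1a, of -1.19 ± 0.188 and -1.51 ± 0.161 (edgeR adjusted p at most 0.000222). Of 25 hnRNP genes, 5 were higher and 4 lower in CD4 cells, and 11 higher and 4 lower in CD8 cells. Hnrnpll, which directs the switch in Ptprc splicing of activated T cells, rose by 1.19 ± 0.113 in CD4 and 1.87 ± 0.0943 in CD8 cells on the log2 scale (edgeR adjusted p = 2.28e-06 and 3.54e-10). Clock genes split, 5 of 18 higher in each cell type and 4 lower in CD4 and 11 lower in CD8 cells: in CD4 and CD8 cells Bhlhe40 had log2 fold changes of 4.59 ± 0.21 and 4.12 ± 0.241, and Dbp of -2.18 ± 0.229 and -3.29 ± 0.264 (edgeR adjusted p at most 5.71e-06). Of the cell cycle genes, 14 of 15 rose in CD4 and 15 of 15 in CD8 cells. The median log2 fold changes in CD4 and CD8 cells were 0.46 and 0.92 for cold-shock domain genes, -0.64 and -0.49 for heat shock genes, -0.41 and -0.70 for SR kinases, -0.18 and -0.05 for SR proteins, -0.03 and -0.14 for SR-like genes, -0.12 and 0.02 for RBM genes, 0.015 and 0.24 for hnRNP genes, -0.71 and -1.46 for clock genes and 3.44 and 4.64 for cell cycle genes. Those of all genes tested were -0.08 and -0.05. The other cells' RNA, given above, also differed between day 0 and day 7, and its part in these list values was not tested.

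The genes whose levels followed each of the 3 most closely were taken over the 24 day 7 libraries, centred by cell type, among 7257 genes whose log2 CPM averaged 4 or more. The coefficient is that of log2 CPM, and since the libraries share treatments and kits it is a description. Serpinb6a, a protease inhibitor, was most like Cirbp (Pearson r = 0.915), followed by Mrps9 (0.892), Zdhhc4 (0.875), St7 (0.866) and Pip5k1c (0.866). With day 0 included, over all 30 libraries, Serpinb6a had r = 0.533 and Mrps9 0.169. Uros, an enzyme of haem synthesis, was most like Srsf7 (r = 0.929, and 0.650 over all 30 libraries), followed by Icam2 (0.910), Rnf5 (0.904), Mrps25 (0.902) and H2-T24 (0.899).

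Rbm3 was most like Ctla4, the inhibitory receptor of activated T cells (r = 0.920), followed by Gsto1 (0.892), Pus10 (0.865), Pgrmc1 (0.850) and Arih2 (0.841). Over all 30 libraries Ctla4 remained first for Rbm3, with r = 0.982. In CD4 cells Ctla4 had 124.0 ± 12.9, 133.8 ± 15.4 and 114.8 ± 4.25 CPM with iNKT1, iNKT2 and iNKT17 cells, 220.8 ± 21 CPM untreated and 33.8 ± 5.74 CPM on day 0 (SD, n = 3 each). In CD8 cells these were 87.1 ± 11.7, 70.1 ± 7.08, 67.9 ± 7.11, 140.3 ± 11.3 and 11.5 ± 0.464 CPM. Like Rbm3, Ctla4 was thus highest in untreated day 7 cells, lower with each sublineage and lowest on day 0. Mki67, which marks cycling cells, had the same order of means in CD4 cells, at 73.5 ± 13.3, 38.5 ± 16.1 and 55.8 ± 25.1 CPM with iNKT1, iNKT2 and iNKT17 cells, 79.0 ± 26.2 CPM untreated and 5.41 ± 2.67 CPM on day 0, with treated libraries overlapping untreated ones. In CD8 cells it had 145.6 ± 37.1, 99.3 ± 14.2 and 113.3 ± 26.1 CPM with iNKT1, iNKT2 and iNKT17 cells, 136.5 ± 63.1 CPM untreated and 4.72 ± 3.25 CPM on day 0, so that its mean with iNKT1 cells was above the untreated one.

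**Figure D4:**
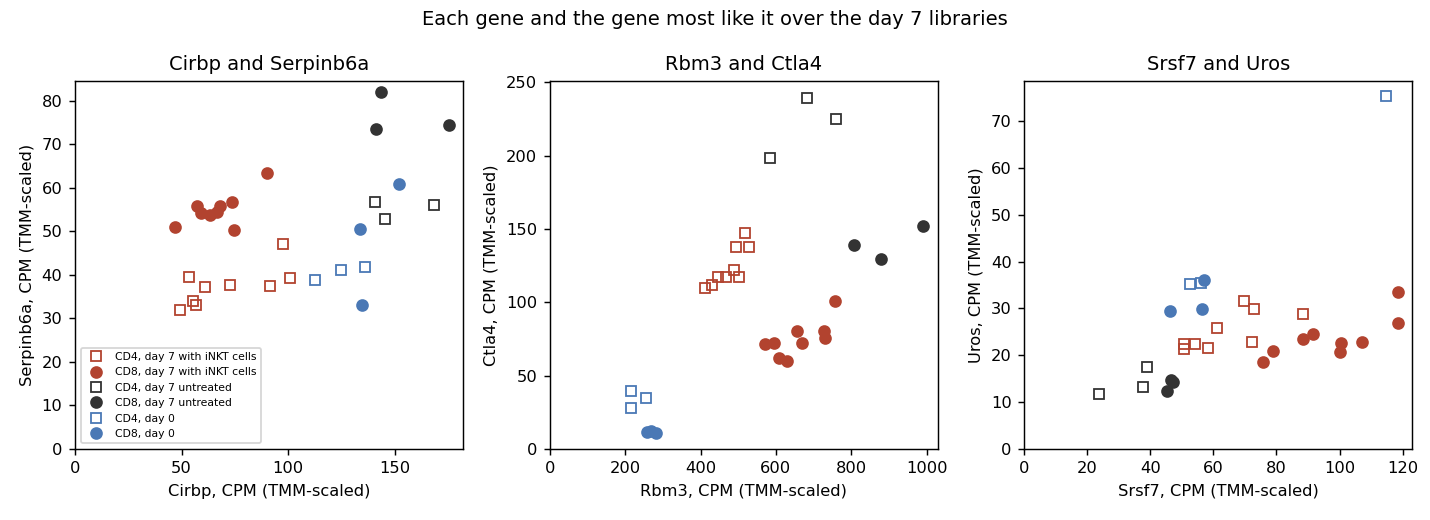
Each of the 3 genes (x axis) against the gene most like it over the day 7 libraries (y axis), both in TMM-scaled CPM, in all 30 donor T cell libraries. Red marks day 7 with iNKT cells, black untreated and blue day 0; day 0 libraries are lowest within each cell type for Rbm3 and Ctla4 (r = 0.982 over 30 libraries, log2 CPM centred by cell type), while day 0 libraries with high Cirbp have low to middle Serpinb6a (r = 0.533).

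In thymic iNKT cells, where the genes were tested, none of the 3 passed the test between sublineages. The iNKT17 libraries had 111.9 and 62.8 CPM of Cirbp, iNKT2 libraries 182.2 and 127.8 CPM and iNKT1 libraries 172.0 and 144.9 CPM. Both iNKT17 libraries were the lowest, and the log2 fold change was -0.86 ± 0.432 against iNKT1 and -0.83 ± 0.431 against iNKT2 cells (edgeR adjusted p = 0.572 and 0.698). Srsf7 had 218.0 and 404.1 CPM in iNKT17, 489.0 and 401.4 CPM in iNKT2 and 392.3 and 375.2 CPM in iNKT1 libraries, with 1 iNKT17 library below all others and 1 among them. Its log2 fold changes were -0.30 ± 0.318 (iNKT17 minus iNKT1), -0.52 ± 0.319 (iNKT17 minus iNKT2) and 0.21 ± 0.318 (iNKT2 minus iNKT1), with edgeR adjusted p = 0.836, 0.698 and 1.0.

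Rbm3 had 32.0 and 176.7 CPM in iNKT17, 86.5 and 78.9 CPM in iNKT2 and 153.2 and 140.0 CPM in iNKT1 libraries. Its iNKT17 libraries lay below and above all the others, and the log2 fold change of iNKT17 minus iNKT1 was -0.49 ± 0.675 (edgeR adjusted p = 0.910). One iNKT17 library decides this value: it was -2.18 ± 0.618 without replicate 2 (edgeR adjusted p = 0.0477) and 0.28 ± 0.473 without replicate 1. Between iNKT2 and iNKT1 cells it was -0.83 ± 0.678 (edgeR adjusted p = 1.0). In these contrasts edgeR called 0 of 3 genes, with 0 at an unadjusted p under 0.05 and 0 by DESeq2, beside 1.29% (iNKT2 minus iNKT1), 2.0% (iNKT17 minus iNKT1) and 0.711% (iNKT17 minus iNKT2) of all genes called in either direction. With 2 libraries a group and a common biological coefficient of variation of 1.30, beside 0.288 in CD4 and 0.196 in CD8 cells, the SEs of these iNKT differences, 0.318 to 0.678, limit what could be detected.

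Reads of Rbm3 may be shared with its pseudogene Rbm3-ps on chromosome 1. In iNKT RNA that copy had 21.4 to 92.3 CPM, and the sum of both was 65.7 and 250.5 CPM in iNKT17, 107.9 and 171.2 CPM in iNKT2 and 195.1 and 211.7 CPM in iNKT1 libraries. In donor T cells the pseudogene stayed at or below 0.4 CPM. Rbm3 also overlaps the antisense Rbm3os by 454 bases. Rbm3os had no count in 5 of 6 iNKT libraries and 51 counts in iNKT2 replicate 2. No entry with that symbol was found in the donor T cell counts. The donor T cell kit does not mark strand, so reads of the pair within these 454 bases cannot be told apart there.

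Chromatin at the genes was read from 6 ATAC regions within 2000 bases of them. Cirbp (ENSMUSG00000045193) spans chr10:80165990-80172786, Rbm3 (ENSMUSG00000031167) chrX:8138975-8145880 and Srsf7 (ENSMUSG00000024097) chr17:80200080-80207369 in RefSeq's GRCm38.p6. A region 672 bases before the Cirbp gene, chr10:80165014-80165318 as the file names it, was less open outside iNKT1 cells. It had 20.5 and 18.7 CPM in iNKT17 and 19.5 and 19.1 CPM in iNKT2 libraries, against 39.1 and 38.7 CPM in iNKT1 libraries. The log2 fold change was -0.99 ± 0.188 for iNKT17 and -1.01 ± 0.189 for iNKT2 minus iNKT1 (edgeR adjusted p = 0.00318 and 0.00349). Both calls held in every alternative run.

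The region over the Cirbp start sites, chr10:80167439-80168329, holds both windows printed above and did not pass the test in the fit without replicate numbers. It had 102.4 and 85.4 CPM in iNKT17, 88.3 and 79.5 CPM in iNKT2 and 112.1 and 99.6 CPM in iNKT1 libraries, with log2 fold changes of -0.17 ± 0.184 and -0.34 ± 0.184 against iNKT1 (edgeR adjusted p = 0.495 and 0.177). With the replicate number as a block it passed for iNKT2 minus iNKT1 (-0.33, edgeR adjusted p = 0.011) and not for iNKT17 minus iNKT1 (-0.18, edgeR adjusted p = 0.123). Another region, chr10:80172799-80173287, starts 13 bases past the gene's end and reaches into Fam174c, whose nearest base lies 158 bases past that end. The log2 fold changes of this region lay within 0.08 of 0. The region over the Srsf7 start site, chr17:80206353-80207747, holds the printed Srsf7 window and the start of Gemin6, a gene of the SMN complex that begins 135 bases away.

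That Srsf7 region had 80.8 and 95.7 CPM in iNKT17 and 65.9 and 91.0 CPM in iNKT2 libraries, against 131.4 and 179.2 CPM in iNKT1 libraries. Both groups lay below both iNKT1 libraries, with log2 fold changes of -0.82 ± 0.233 and -0.99 ± 0.234 (edgeR adjusted p = 0.0223 and 0.0102). Without iNKT1 replicate 2 the calls were lost, at -0.61 and -0.73 (edgeR adjusted p = 0.150 and 0.0893). They were also lost without iNKT17 replicate 1 (-0.77, edgeR adjusted p = 0.0927) and without iNKT2 replicate 1 (-0.75, edgeR adjusted p = 0.0684). The RNA values of Srsf7 in iNKT cells, given above, passed no test.

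Both regions assigned to Rbm3, chrX:8145165-8145509 inside the gene and chrX:8145589-8146302 across its 5′ edge and Rbm3os, passed no test. The inner region had 15.6 and 14.5 CPM in iNKT17, 13.3 and 15.4 CPM in iNKT2 and 17.6 and 17.8 CPM in iNKT1 libraries. In all, 2 of 6 regions were called lower in iNKT2 than in iNKT1 cells, beside 16.3% of all regions, and 2 of 6 in iNKT17 than in iNKT1 cells, beside 13.6%. Between iNKT17 and iNKT2 cells none of 6 was called by edgeR, 0 had an unadjusted p under 0.05 and DESeq2 called 0, beside 3.24% of all regions called lower by edgeR. With the replicate block, regions called in either direction numbered 10102, against 4549 without it, and none of the 6 was called (edgeR adjusted p at least 0.225).

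**Figure D5:**
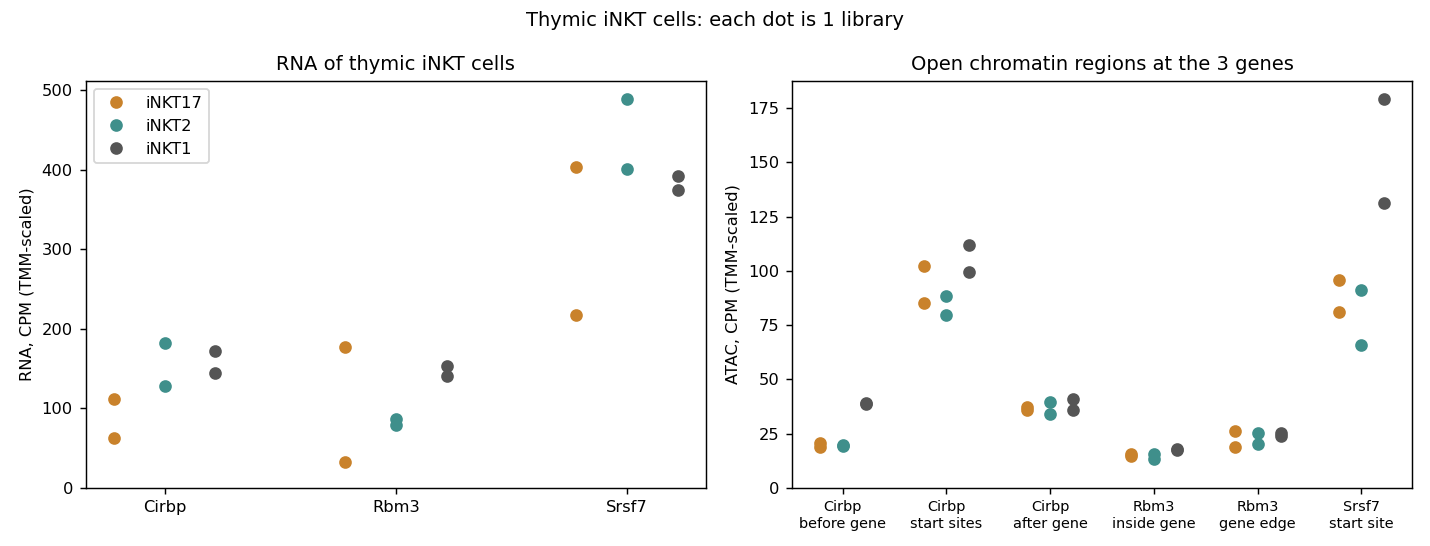
RNA of the 3 genes (left) and ATAC counts of the 6 regions at them (right) in thymic iNKT17, iNKT2 and iNKT1 libraries, in TMM-scaled CPM. Each dot is 1 library (2 a group); iNKT1 stands above the other sublineages in the region before Cirbp and in that over the Srsf7 start site.

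Single thymic iNKT cells of 2 mice gave a level without a test, since they form 1 group. Barcodes with at least 1000 UMIs numbered 142 and 146, with a median of 5206 and 5790 UMIs, and the libraries shared 0 barcodes. No doublet caller was run, so doublets were not removed here. Cirbp had 100 UMIs in 1 mouse (120.4 CPM, exact 95% Poisson interval 98.0 to 146.4) and 87 in the other (97.1 CPM, 77.7 to 119.7). Rbm3 had 375 and 386 UMIs (451.5, 407.0 to 499.6, and 430.6, 388.7 to 475.7 CPM). Srsf7 had 60 and 67 UMIs (72.2, 55.1 to 93.0, and 74.7, 57.9 to 94.9 CPM). The intervals, which cover counting error only, overlapped between the mice for each gene, and these values are not on the scale of the bulk tables.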

How the data were processed

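Donor T cells, thymic iNKT cells and their chromatin were measured as labelled above, with 48 samples in the labels. All deposited values used are raw counts, whole numbers per gene, region or (UMI counts) barcode. Per the labels' protocols, donor T cell libraries were made with SMARTer v4 and Nextera XT, which do not mark strand, and iNKT RNA libraries with TruSeq stranded mRNA. The submitters' processing notes list STAR 2.5.4, kallisto, Cell Ranger 2.1, MACS2, HOMER 4.9.1 and DESeq2 1.22.2 with builds mm10 and GRCm38, without saying which made which table. Whether counting used strand is not given in the sources used here.

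In R 4.3.3, edgeR 4.0.16 took these counts through its filter on low values, TMM scaling and a robust quasi-likelihood fit with 1 term per group (15 CD4, 15 CD8, 6 RNA or 6 ATAC libraries), Benjamini-Hochberg adjustment over all features and calls at an adjusted p under 0.05. The difference between CD8 and CD4 effects used all 30 libraries, with no term for pairs of CD4 and CD8 libraries. DESeq2 1.42.0, other scalings, no filter, only the compared groups, a replicate block and leaving out each library were alternatives. The fits were tested on simulated data. Ensembl IDs took symbols from the single-cell gene table (98.5% of donor T cell and 99.9% of iNKT IDs).

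The genes and lists were chosen with earlier results of these data known. Named are the 3 genes, up to 4 genes with the smallest p per list and comparison, the 5 genes most like each, their overlapping genes and check genes. Not ranked for likeness were Xist, Y-linked genes, receptor segments of B and T cells, mitochondrial and ribosomal genes, pseudogenes and predicted genes. The labels do not say that libraries are separate animals, so the p-values cover spread among libraries that may be technical. Titles name 2 experiments, but the table columns do not, so no experiment term could be fitted, and 3 CD8 day 0 columns share 1 name. RNA tables were normalized separately, and no level is compared between them. Samples of CD4-sorted iNKT1 cells were not used here. The main fits held no term for the replicate number, and whether it pairs donor T cell or iNKT RNA samples was not settled. Deviations of same-numbered libraries correlated from -0.735 to 0.783 (median 0.288) in CD4 and from -0.679 to 0.631 (median 0.122) in CD8 libraries. The medians for libraries of other numbers were -0.0988 and -0.0304. In iNKT RNA, same-numbered libraries correlated from 0.00142 to 0.0225. In ATAC libraries same-numbered libraries deviated together (0.719 to 0.797), with 2 numbers only and no label that says what a number marks, so the blocked value stands beside each ATAC result that it changes.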

Additional observations from a re-analysis of the deposited data

How the results depend on the processing

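No direction of the 3 genes in the treatment comparisons of donor T cells changed under any alternative run. Counts of called genes did. Averaged over the treatments, 9 genes were called in CD4 and 179 in CD8 cells, against 385 and 688 with DESeq2, 284 and 85 with all 30 libraries in 1 fit, 63 and 103 with the replicate block, and 17 in CD4 cells with only the compared groups. For iNKT1, iNKT2 and iNKT17 alone, edgeR called 0, 0 and 0 in CD4 cells (1008, 1204 and 1170 at an unadjusted p under 0.05) and 23, 16 and 30 in CD8 cells. DESeq2 called 123, 116 and 213 in CD4 and 385, 353 and 483 in CD8 cells, and the fit of 30 libraries 11, 32 and 75, and 7, 8 and 2. The replicate block gave 2, 4 and 11 in CD4 cells and 3 and 5 for iNKT1 and iNKT2 in CD8 cells. Only the compared groups gave 3 for iNKT1 in CD4 and 3, 2 and 6 in CD8 cells. For iNKT17, RLE scaling gave 4 and no filter 1 in CD4 cells, and no filter 57 in CD8 cells.

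Leaving out 1 library gave 0 to 10 (CD4) and 12 to 243 (CD8) genes for the mean of the treatments, 0 to 0 for each treatment in CD4 cells, and 0 to 9, 0 to 35 and 1 to 49 for iNKT1, iNKT2 and iNKT17 in CD8 cells. Day 7 untreated minus day 0 gave 5349 genes (4280 to 6164) in CD4 and 8847 (7923 to 8753) in CD8 cells. Upper-quartile scaling moved the median of all genes there to -0.189 in CD4 and -0.154 in CD8 cells, against -0.0822 and -0.0484. In iNKT RNA, iNKT2 minus iNKT1, iNKT17 minus iNKT1 and iNKT17 minus iNKT2 gave 159 (153 to 315), 247 (195 to 1040) and 88 (157 to 831) genes, 1177, 1820 and 1472 with DESeq2, and 445, 559 and 339 without a filter; the last gave 43 with only the compared groups. ATAC gave 21050 (11572 to 17855), 20220 (12884 to 17368) and 4549 (1572 to 4985) regions, and 10102 for the last with the replicate block. Of the 6 ATAC regions, the block changed no other call than that of the region over the Cirbp start sites, given above. No block was possible for CD8 day 0. The cause of these moves was not tested.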
